A study of Mus musculus with 18 samples.

Results

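The activator protein 1 (AP-1) family and ATF3 were followed in bone marrow-derived macrophages (BMMs) that lacked, carried or overexpressed the glucocorticoid-induced leucine zipper GILZ, with and without lipopolysaccharide (LPS). The members were taken by name, by a rule that uses no measured value but was set with earlier results of these data known, and are 10 of the 38887 genes in the deposited tables: Fos, Fosb, Fosl1, Fosl2, Jun, Junb, Jund, Batf, Batf2 and Atf3. RNA of 3 genotypes was sequenced from untreated cells and from cells given 100 ng/ml LPS for 4 h, which gave 6 groups of 3 and 18 libraries, all from female C57BL/6J mice. The total expected count per library (estimated reads assigned to genes) ran from 14583055 to 38557029. The labels name 3 samples per group but do not say which untreated and LPS-treated samples came from the same animal. BMMs are macrophages grown from marrow cells with the growth factor M-CSF, and LPS is the bacterial wall component sensed by Toll-like receptor 4.

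All 3 genotypes were described as carrying Cre recombinase at the Lyz2 locus (Lyz2tm1(cre)Ifo), which is active in myeloid cells; mice with this allele alone were the study's WT. In GILZ KO, Cre removed a floxed exon of Tsc22d3, the gene for GILZ. In GILZ TG, Cre removed the stop cassette in front of a Tsc22d3 cDNA at ROSA26. Deletion and overexpression were therefore both limited to cells in which Lyz2 had been active.

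AP-1 is a dimer of basic leucine zipper (bZIP) proteins that binds the TRE, a short DNA element found near many inflammatory and matrix genes. JUN proteins pair with each other or with FOS proteins, whereas FOS proteins need a JUN partner; BATF and BATF2 replace FOS in the dimer, lack its activation domain and can bind with interferon regulatory factors, and ATF3 is a relative induced by stress and LPS that often represses inflammatory genes. Toll-like receptor signalling reaches the family through MAP kinases, which drive transcription of its immediate-early members and phosphorylate the proteins. GILZ is a leucine zipper protein known to bind FOS and JUN proteins.

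The genotype labels were read against Tsc22d3 and Lyz2 first. Tsc22d3 stood at 15.8, 14.9 and 18.8 TPM (a level scaled for transcript length and to a common total per library) in untreated WT, at 1.89, 2.81 and 2.31 TPM in GILZ KO and at 156, 160 and 152 TPM in GILZ TG, so the groups did not overlap. After LPS it was 5.15 ± 0.627 TPM in WT, 2.91 ± 0.392 in GILZ KO and 132 ± 7.64 in GILZ TG (SD, n = 3). Lyz2, the gene for lysozyme, did not show the same state in all genotypes: it averaged 12840 ± 2280 TPM in untreated WT but 33.6 ± 10.6 in GILZ KO and 33.0 ± 18.3 in GILZ TG (SD, n = 3), although each genotype was described with the Cre allele. In every contrast with WT the GILZ genotype and the state of the Lyz2 locus therefore cannot be told apart, and the contrast between GILZ KO and GILZ TG, which were alike in Lyz2, was the one with this locus matched.

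The libraries were also read for other cells. The 8 macrophage markers were detected in every library, with summed levels from 3970 to 4500 TPM without LPS and from 4390 to 5050 TPM with it. Cd68 was the most abundant of them without LPS and Cd14 after LPS. The 9 markers of stromal fibroblasts summed to 104, 121 and 10.4 TPM in untreated GILZ TG replicates 1, 2 and 3, against 5.09 to 22.9 TPM in the 6 untreated WT and GILZ KO libraries, and to 83.5, 115 and 10.8 TPM after LPS, against 10.6 to 22.2 TPM. Col1a1, a collagen gene, was the most abundant of them at 44.2, 51.3 and 4.98 TPM in untreated GILZ TG. Markers of the neutrophil lineage (187, 483 and 68.3 TPM in untreated GILZ TG) and of B cells (91.5, 153 and 35.8 TPM) were also high in replicates 1 and 2. Replicate 3 lay just above the highest WT or GILZ KO library (61.2 and 35.4 TPM). S100a9 held 76.0, 199 and 28.9 TPM of the neutrophil sums, and Ighm held 42.0, 46.2 and 16.6 TPM of the B cell sums. The B cell gene Igkc was 6.27 higher in untreated GILZ TG than in WT (log2, SE 0.98). With replicates 1 and 2 left out, that Igkc value was 4.15. After LPS the neutrophil and B cell sums in replicate 3 were 83.5 and 25.6 TPM, against at most 77.2 and 22.5 TPM in WT and GILZ KO. Without LPS, the B cell gene Pax5 was at 0 in all 3 libraries of GILZ TG and the neutrophil gene Ly6g in replicates 1 and 3. Endothelial markers, led by Vwf, summed to 39.1, 34.5 and 40.9 TPM in untreated GILZ KO, above the 18.9 to 28.8 TPM of the 6 other untreated libraries. Vwf alone held 34.2, 30.2 and 36.3 TPM of the GILZ KO sums, against 14.8 to 24.8 TPM in the 6 others. Tek, Tie1 and Emcn were at 0 in untreated GILZ KO replicate 2, and Tek and Emcn in replicate 3. In untreated GILZ TG, Tek was at 0 in replicate 2, and Tie1 and Emcn in replicate 3. After LPS the sums were 27.0 to 31.0 TPM in GILZ KO, 18.4 to 24.2 TPM in GILZ TG and 19.4 to 30.9 TPM in WT. T cell markers summed to 0.75 to 3.69 TPM and erythroid markers to at most 1.37 TPM over the 18 libraries. GILZ TG replicates 1 and 2 thus stood apart from the other libraries in both treatments for stromal, neutrophil and B cell markers, and genes called between genotypes in contrasts with GILZ TG are given below with and without them. Leaving out both leaves 1 GILZ TG library per treatment, which the test assumes to vary like the other groups, so that the size of such a value says more than its adjusted p.

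**Figure D1:**
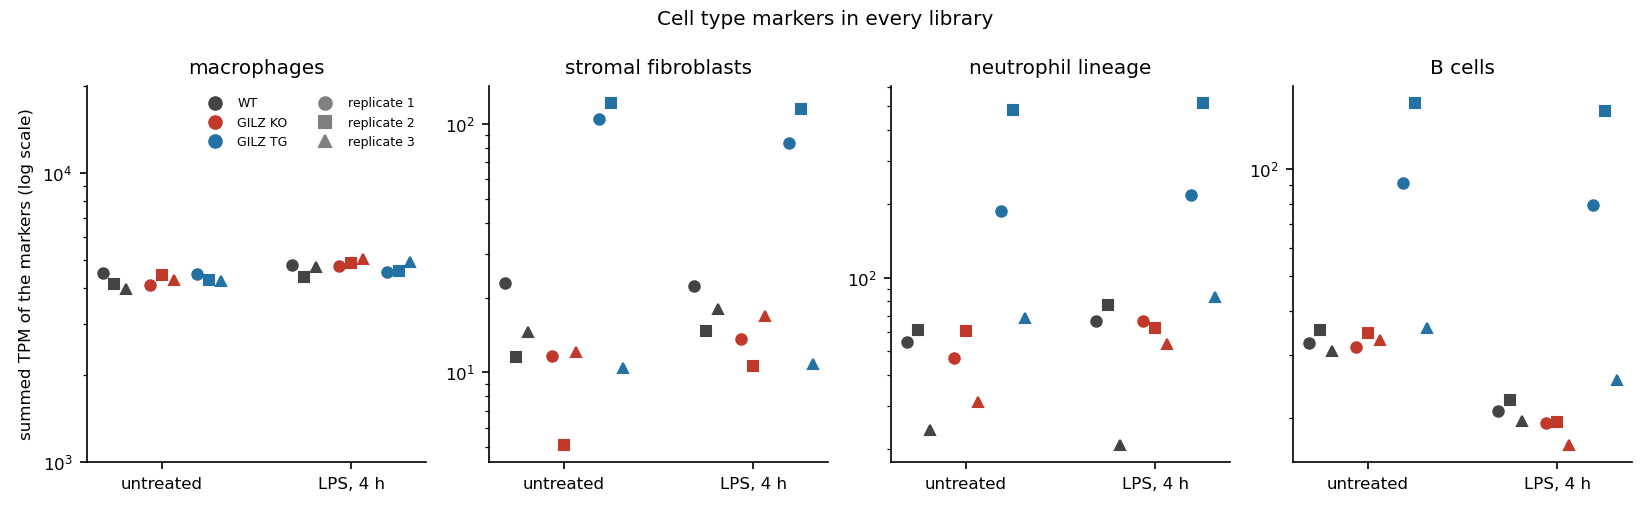
Summed level of the markers of 4 cell types in every library (vertical log axes, TPM), by genotype (colour), replicate (shape) and treatment. The macrophage sums lie between 3970 and 5050 TPM in all libraries, whereas GILZ TG replicates 1 and 2 lie above all others for stromal, neutrophil and B cell markers.

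Without LPS, transcripts of the family were dominated by Fos, Atf3, Junb and Jun. In untreated WT the means were 207 ± 29.9 TPM for Fos, 162 ± 14.1 for Atf3, 124 ± 6.09 for Junb and 109 ± 3.53 for Jun (SD, n = 3). Jund (40.2 ± 6.02 TPM), Fosl1 (34.6 ± 1.31), Fosl2 (19.1 ± 1.63), Batf (8.37 ± 0.252), Batf2 (2.61 ± 0.162) and Fosb (0.55 ± 0.0346) followed. In this order only Jund and Fosl1 overlapped between neighbours. After LPS the WT order was Atf3 (507 ± 53.3 TPM), Junb (424 ± 11.7), Batf2 (177 ± 1.92), Fos (106 ± 11.4), Batf (60.2 ± 7.2), Jund (47.1 ± 5.49), Jun (39.4 ± 6.82), Fosl2 (7.95 ± 2.12), Fosl1 (5.52 ± 0.279) and Fosb (0.0567 ± 0.0321). Here Batf overlapped with Jund and Jund with Jun.

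The summed level of the 10 genes was 657 to 740 TPM in untreated WT and 1320 to 1450 TPM in WT after LPS. Fos made up 26.7 to 31.7% of that sum without LPS and 6.46 to 8.75% with it, and Jun went from 15.0 to 16.0% to 2.61 to 3.26%. Junb moved the other way, from 16.3 to 18.3% to 29.8 to 32.5%, and Batf2 from 0.35 to 0.382% to 12.2 to 13.2%. In bulk RNA a change in the level per cell and a change in the number of cells that express a gene cannot be told apart.

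**Figure D2:**
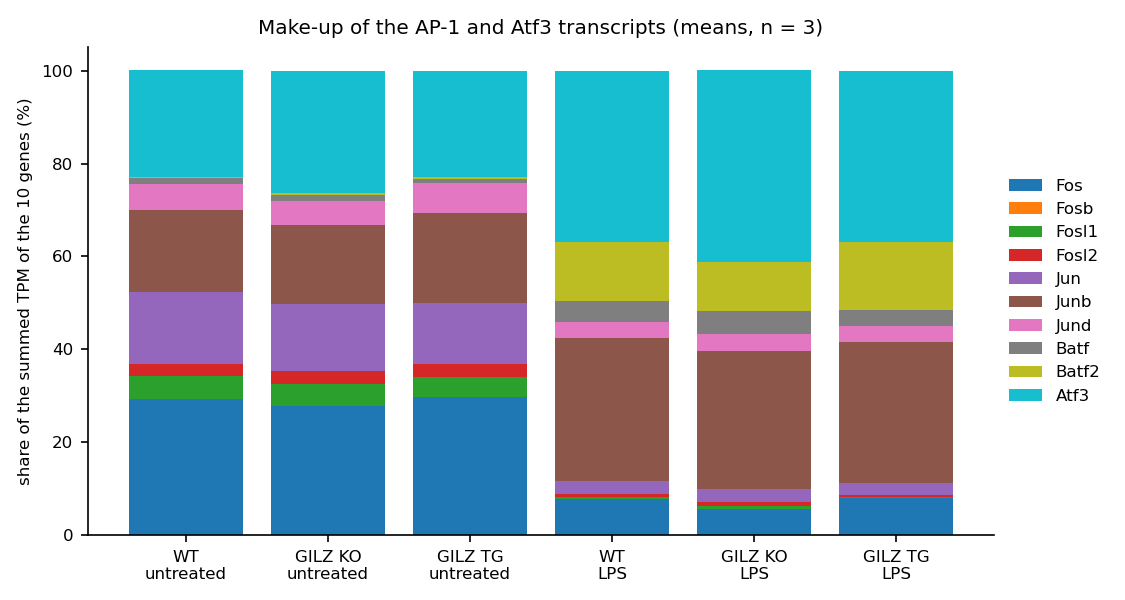
Mean share of each gene in the summed TPM of the 10 genes (vertical axis, %), for the 6 groups of 3 libraries. The shares of Fos, Jun and Fosl1 are smaller after LPS in each genotype, and those of Junb, Batf2 and Atf3 are larger.

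The first comparison asked how the family responded to LPS in each genotype. In WT all 10 members changed by edgeR's quasi-likelihood test (adjusted p under 0.05, Benjamini-Hochberg over 13169 genes): Junb, Jund, Batf, Batf2 and Atf3 rose, and Fos, Fosb, Fosl1, Fosl2 and Jun fell. LPS changed 68.6% of all genes tested in WT, so the number of members called is not particular to the family. In GILZ KO 9 of 10 were called, 5 higher and 4 lower, against 68.5% of all genes, and in GILZ TG 10 of 10, 5 higher and 5 lower, against 68.7%. In TPM, untreated and LPS-treated libraries did not overlap for 9 of 10 members in WT (81.2% of all genes), 10 of 10 in GILZ KO (83.7%) and 9 of 10 in GILZ TG (80.9%). The 3 responses use separate libraries of each genotype.

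These folds are relative to the median gene, to which the TMM normalization is tied, and the choice of scale matters for LPS. TMM factors were 1.24 to 1.28 in the untreated libraries and 0.756 to 0.828 after LPS, and the 100 most abundant genes took 22.1 to 23.7% of the counts without LPS and 26.3 to 27.9% with it. Scaled by the library total, the median log2 change of all genes moved by -0.68 in WT, -0.64 in GILZ KO and -0.67 in GILZ TG, and 18.9% of the called genes in WT were higher, against 48.9% with TMM (18.8% against 48.4% in GILZ KO, 18.5% against 48.9% in GILZ TG). TPM levels are also shares of a total, so that a member's TPM fell by more, or rose by less, than its TMM fold.

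**Figure D3:**
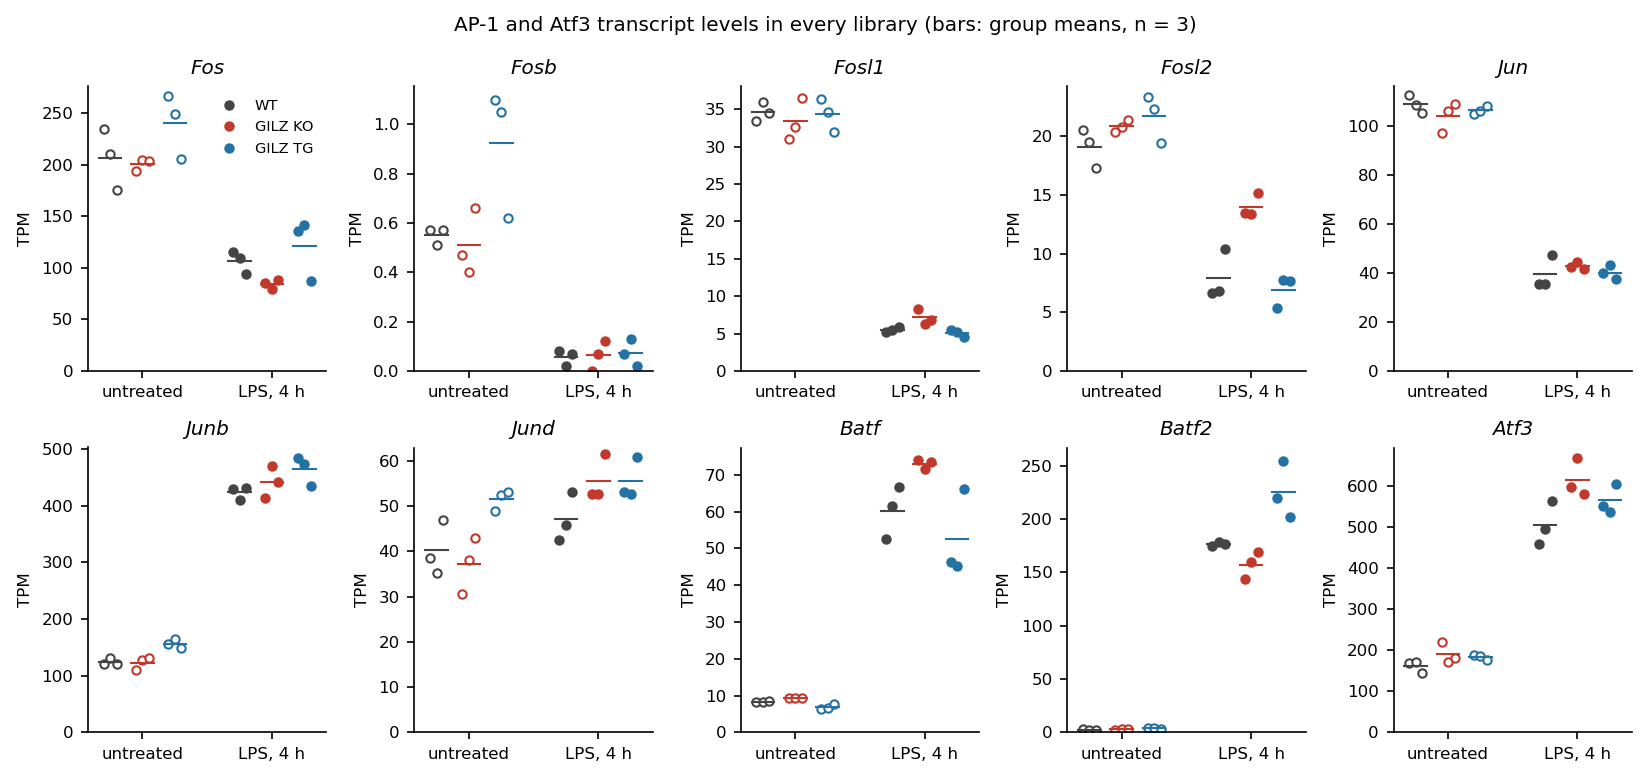
Level of each of the 10 genes in every library (vertical axes from 0, TPM), with open points for untreated and filled points for LPS-treated libraries, colours for genotype and lines for group means of 3. Fosl2 after LPS is above 13 TPM in all 3 GILZ KO libraries and at most 10.4 TPM in the other 6.

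Among the genes for JUN proteins, which supply the partner that every FOS protein needs, Jun and Junb went in opposite directions. Jun, the founding subunit, stood at 112, 108 and 105 TPM in untreated WT and at 35.6, 35.3 and 47.2 TPM after LPS. The groups did not overlap in any genotype. Its log2 fold change was -0.83 (SE 0.08, adjusted p = 6.78e-08, edgeR) in WT, -0.64 (SE 0.08) in GILZ KO and -0.77 (SE 0.08) in GILZ TG. Junb, a JUN protein that often restrains JUN activity on shared elements, stood at 120, 131 and 120 TPM in untreated WT and at 430, 410 and 431 TPM after LPS. It rose by a log2 fold change of 2.40 (SE 0.08, adjusted p = 2.48e-14, edgeR) in WT, 2.48 (SE 0.08) in GILZ KO and 2.20 (SE 0.08) in GILZ TG, with no overlap in any genotype.

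Jund, the JUN protein that resting cells also express, changed least among the risers. It stood at 38.4, 35.3 and 46.9 TPM in untreated WT and at 42.5, 45.7 and 53.2 TPM after LPS, so these groups overlapped, as they did in GILZ TG but not in GILZ KO. The TMM fold change was 0.85 (SE 0.14, adjusted p = 2.6e-05, edgeR, log2) in WT, 1.22 (SE 0.14) in GILZ KO and 0.74 (SE 0.13) in GILZ TG. Scaled by the library total, Jund was 0.18 higher in WT (log2, adjusted p = 0.215, edgeR) and 0.07 higher in GILZ TG (adjusted p = 0.649), neither past the threshold, so its rise in those genotypes was one relative to the median gene only.

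Transcripts of the FOS genes fell, apart from Fosl2 in GILZ KO, which did not pass on the TMM scale. Fos, the immediate-early subunit that peaks soon after a stimulus, stood at 235, 210 and 175 TPM in untreated WT and at 116, 109 and 93.6 TPM after LPS. Every LPS library was below every untreated one in each genotype. Its log2 fold change was -0.33 (SE 0.13, adjusted p = 0.0387, edgeR) in WT, -0.65 (SE 0.14, adjusted p = 0.000404) in GILZ KO and -0.32 (SE 0.13, adjusted p = 0.0444) in GILZ TG. In WT and GILZ TG these calls were close to the threshold: without WT LPS replicate 3 the Fos value was -0.22 (adjusted p = 0.186), without WT untreated replicate 1 or 2 it was -0.28 (0.116) or -0.36 (0.0586), without GILZ TG LPS replicate 3 it was -0.15 (0.244), and without GILZ TG untreated replicate 1 or 2 it was -0.27 (0.134) or -0.32 (0.0859). The GILZ TG call of Fos was also lost, at the same size, without WT LPS replicate 2 (0.0514) and without GILZ KO LPS replicate 1, 2 or 3 (0.0542, 0.0519 and 0.0516).

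Fosl1, the gene for FRA-1, a FOS protein without the strong activation domain of FOS, fell furthest among the abundant members. It stood at 33.4, 36.0 and 34.5 TPM in untreated WT and at 5.27, 5.46 and 5.82 TPM after LPS. Its log2 fold change was -2.02 (SE 0.09, adjusted p = 2.96e-12, edgeR) in WT, -1.58 (SE 0.09) in GILZ KO and -2.11 (SE 0.09) in GILZ TG, without overlap in any genotype. Fosb, the closest relative of Fos, was barely detected: 31 to 35 counts per library in untreated WT and 1 to 4 after LPS, 18 to 28 and 0 to 4 in GILZ KO, and 32 to 63 and 1 to 9 in GILZ TG. It fell in each genotype, by log2 values from -2.48 to -2.85 with SEs of 0.51 to 0.64, and these few counts set its precision. With single libraries left out, the Fosb value ran from -3.53 to -1.72 in GILZ KO. It ran from -2.83 to -2.21 in WT and from -3.37 to -2.56 in GILZ TG. Over all alternatives run, the smallest fall was -0.55 in WT, -0.50 in GILZ KO and -0.83 in GILZ TG.

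Fosl2, the gene for FRA-2, which resembles FRA-1, was the member with the largest difference of response between GILZ KO and GILZ TG, one that was just past the threshold, did not pass against WT and was lost when some single libraries were left out, as given below. It stood at 20.5, 19.6 and 17.3 TPM in untreated WT and at 6.61, 6.85 and 10.4 TPM after LPS, and at 23.4, 22.3 and 19.4 and then 5.4, 7.74 and 7.67 TPM in GILZ TG. In GILZ KO it stood at 20.4, 20.8 and 21.4 TPM and, after LPS, at 13.4, 13.4 and 15.1 TPM, above every LPS-treated library of the other genotypes. It fell in WT (log2 fold change -0.64, SE 0.14, adjusted p = 0.000792, edgeR) and in GILZ TG (-1.02, SE 0.14, adjusted p = 6.92e-06). In GILZ KO the value was 0.06 (SE 0.14, adjusted p = 0.73), which did not pass. The direction in GILZ KO depended on the scale: the Fosl2 value was -0.58 (adjusted p = 0.00134, edgeR) when scaled by the library total and -0.55 (adjusted p = 0.00211, limma) on log2(TPM + 1). On each of these scales the Fosl2 response was higher in GILZ KO than in GILZ TG, and the difference itself is tested below.

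The BATF genes and Atf3 also rose, and Batf2 rose furthest of the 10 members in each genotype. Batf, known for pairing with JUN proteins and IRF4 in lymphocytes, stood at 8.14, 8.34 and 8.64 TPM in untreated WT and at 52.5, 61.5 and 66.7 TPM after LPS, and rose by a log2 fold change of 3.48 (SE 0.15, adjusted p = 1.27e-12, edgeR). Batf2, an interferon-induced BATF that works with IRF1 in macrophages, stood at 2.8, 2.53 and 2.51 TPM and then at 175, 179 and 177 TPM. Its log2 fold change of 6.87 (SE 0.11, adjusted p = 2.86e-17, edgeR), a 117-fold rise, ranked 129 from the top of 13169 genes in WT. Atf3 stood at 169, 171 and 145 TPM and then at 459, 497 and 564 TPM, a log2 fold change of 2.29 (SE 0.09, adjusted p = 4.03e-13, edgeR). In GILZ KO and GILZ TG the values were 3.60 and 3.57 for Batf, 6.40 and 6.53 for Batf2, and 2.36 and 2.24 for Atf3, and untreated and LPS-treated libraries did not overlap for these 3 genes in any genotype.

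**Figure D4:**
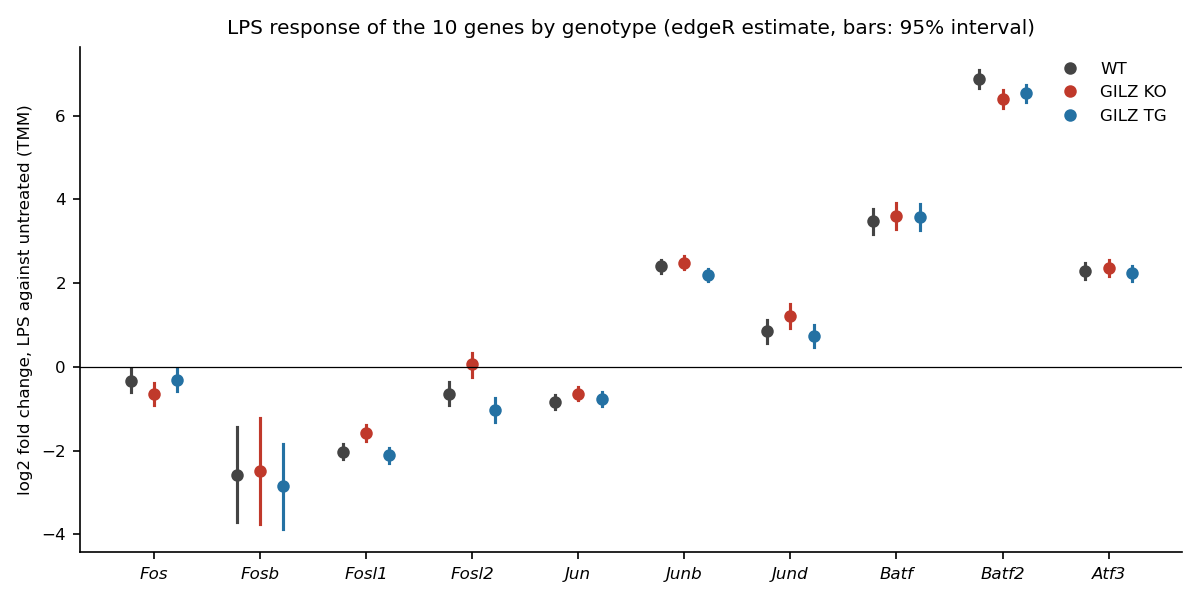
Log2 fold change of LPS-treated against untreated libraries for each gene (vertical axis, TMM scale, edgeR), with 95% intervals, for WT, GILZ KO and GILZ TG. Junb, Jund, Batf, Batf2 and Atf3 are above 0 and Fos, Fosb, Fosl1 and Jun below 0 in each genotype; Fosl2 is below 0 in WT and GILZ TG and at 0.06 in GILZ KO.

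The DNA just before the RefSeq transcription start was read for the members that moved together. RefSeq promoters (GRCm38.p6) were found for 8 of 10 members; Fosl1 and Batf2 had no entry. The 250 bases before the start were searched on both strands for the TRE (TGACTCA or TGAGTCA), the cAMP response element CRE (TGACGTCA), a TATA box (TATAAA), the CArG box of serum response factor and the NF-kB site. The TRE was in 4.46% of all 32851 promoter entries of this length, the CRE in 1.55%, the TATA box in 12.4%, the CArG box in 1.47% and the NF-kB site in 3.9%. Matches stood in 3 of the 8 members: a TATA box 33 to 28 bases before the start of Fos, and letters of the NF-kB site 214 to 205 bases before Fos, 188 to 179 bases before Fosb, and in a pair of overlapping matches 182 to 172 bases before Fosl2. All 3 are FOS genes that fell in WT; Jun, Junb, Jund, Batf and Atf3 held none of these letters in the window. A match is a description of the letters, not a site of binding, and these windows end at the RefSeq start, which is not always the GENCODE one. The Fosl2 window lies within the first exon of the GENCODE transcript, the Atf3 window lies inside the GENCODE gene, the Fosb and Batf windows overlap the start of theirs, and the Jund window ends well before its GENCODE start. For these genes a match or its absence therefore does not describe the DNA just before the GENCODE start. Fos at chr12:85473640-85473889 (plus strand), with its matches in capitals, is shown as a member that fell, and Junb at chr8:84978749-84978998 (minus strand) as one that rose and held no match. Both run 5′ to 3′ and end at the base before the start.
Fos: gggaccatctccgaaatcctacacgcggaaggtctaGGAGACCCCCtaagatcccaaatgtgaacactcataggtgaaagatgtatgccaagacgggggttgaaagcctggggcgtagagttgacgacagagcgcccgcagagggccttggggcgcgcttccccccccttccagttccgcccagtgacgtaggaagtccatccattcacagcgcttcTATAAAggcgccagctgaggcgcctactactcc
Junb: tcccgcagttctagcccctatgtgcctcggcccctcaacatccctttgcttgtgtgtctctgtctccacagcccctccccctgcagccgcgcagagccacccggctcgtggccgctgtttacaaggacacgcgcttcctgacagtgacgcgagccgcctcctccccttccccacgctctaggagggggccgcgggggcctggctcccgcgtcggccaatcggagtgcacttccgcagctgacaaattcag
In GRCm38, with GENCODE coordinates, Fos lies at chr12:85473890-85477273, Fosl2 at chr5:32135801-32157842, Batf2 at chr19:6140983-6172476 (all plus strand) and Junb at chr8:84974484-84978718 (minus strand). Some members share bases with a gene on the opposite strand: Junb with Prdx2 (351 bases), Fosl1 with Ccdc85b (2767 bases), Batf2 with Arl2 (566 bases), Jun with Junos (689 bases) and Jund with Gm11175 (919 bases), and Batf2 also holds the pseudogene Gm5510 on its own strand (486 bases). The library kit keeps the strand, but how strand was used in counting was not given in the sources used here, so reads in these stretches are uncertain; Fos, Fosb, Fosl2 and Batf overlap no other annotated gene.

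The second comparison asked whether GILZ changed the family in untreated cells. For GILZ KO against WT, 0 of 10 members passed (edgeR, 12621 genes), beside 0.0951% of all genes, and 0 had an unadjusted p under 0.05 (9.6% of all genes); DESeq2 also called 0, and 2 members did not overlap in TPM (17.2% of all genes). For GILZ TG against WT, 0 of 10 passed, beside 0.642% of all genes, while 6 members (Fosb, Fosl2, Junb, Jund, Batf and Batf2) had an unadjusted p under 0.05 (14.1% of all genes) and 6 did not overlap (14.9%); DESeq2 called 1, Junb. For GILZ KO against GILZ TG, 1 of 10 passed, beside 4.94% of all genes, and 5 had an unadjusted p under 0.05 (24.6%). In that contrast DESeq2 called 2, Junb and Jund. The shares of all genes that passed are those of the edgeR fit, not of DESeq2. Over all alternatives run, genes called of all tested ran from 34 to 1306 (main 623) in that contrast. They ran from 5 to 79 (main 12) for GILZ KO against WT and from 16 to 665 (main 81) for GILZ TG against WT.

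The member that passed by edgeR between GILZ KO and GILZ TG was Junb. It stood at 110, 127 and 131 TPM in untreated GILZ KO and at 156, 165 and 148 TPM in GILZ TG, with WT at 120, 131 and 120 TPM. All 3 GILZ TG libraries were above the other 6. Junb was lower in GILZ KO than in the overexpressing cells, with a log2 fold change of -0.38 (SE 0.07, adjusted p = 0.0219, edgeR), and 0.33 higher in GILZ TG than in WT (SE 0.07, adjusted p = 0.0907). The first Junb value was -0.30 (adjusted p = 0.0801) or -0.41 (0.0682) when GILZ KO replicate 1 or 2 was left out. It was -0.39 (adjusted p = 0.0609) or -0.34 (0.096) when GILZ TG replicate 1 or 2 was left out, so each of these 4 libraries ended the call. With both GILZ TG replicates left out, and 1 library remaining, it was -0.32 (adjusted p = 0.188). GILZ TG replicate 3 held 148 TPM of Junb, above all WT and GILZ KO libraries. Its stromal marker sum was 10.4 TPM, while its neutrophil and B cell sums lay just above every untreated WT and GILZ KO library. In the same contrast the endothelial gene Vwf was higher in GILZ KO (0.74, SE 0.12, adjusted p = 0.0139, edgeR), as was the B cell gene Cd79b (0.60). The neutrophil gene S100a9 (-2.55), Col1a1 (-3.25) and the B cell gene Igkc (-5.80) were lower in GILZ KO. Against GILZ TG replicate 3 alone, these values were 0.53 for Vwf, 0.60 for Cd79b, -0.76 for S100a9, -0.14 for Col1a1 and -3.67 for Igkc. The part of endothelial, stromal, neutrophil and B cell transcripts in the Junb difference was not tested.

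Other members of the untreated contrast between GILZ KO and GILZ TG did not pass by the edgeR test. Jund differed by -0.50 on the log2 scale (SE 0.14, adjusted p = 0.0663, edgeR) and was near the threshold: it passed with DESeq2 (adjusted p = 0.00899), with no filter on low counts (0.0245), with the 6 libraries compared alone (0.0438) and with all 18 libraries in 1 fit (0.0498). Batf passed with limma on log2(TPM + 1). Fosb differed by -0.89 (SE 0.28, adjusted p = 0.0873), Batf by 0.41 (SE 0.13, adjusted p = 0.0895), Batf2 by -0.40 (SE 0.18, adjusted p = 0.207) and Fos by -0.26 (SE 0.09, adjusted p = 0.122). Batf, at 9.41, 9.32 and 9.26 TPM in GILZ KO and 6.38, 6.54 and 7.63 TPM in GILZ TG, and Jund, at 30.5, 38.0 and 43.0 TPM and 48.9, 52.5 and 53.0 TPM, did not overlap. In this contrast 5 of 10 members did not overlap, beside 28.7% of all genes. Atf3, Jun, Fosl1 and Fosl2 differed by -0.04 to -0.09, with SEs of 0.05 to 0.08.

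The third comparison put the genotypes side by side after LPS, with 9 members tested because Fosb was below the count filter. In GILZ KO against WT, 0 of 9 passed (edgeR, 12164 genes), beside 0.0822% of all genes; 4 members (Fos, Fosl1, Fosl2 and Jund) had an unadjusted p under 0.05 (9.63% of all genes), 6 did not overlap in TPM (16.3%), and DESeq2 called 1, Fosl2. In GILZ TG against WT, 0 of 9 passed, beside 0.46%; 2 members (Jund and Batf2) had an unadjusted p under 0.05 (15.2%), 2 did not overlap (15.2%), and DESeq2 called 1, Batf2. In GILZ KO against GILZ TG, 2 of 9 passed, beside 2.6% of all genes: Fosl2 was higher and Batf2 lower in GILZ KO. There 5 had an unadjusted p under 0.05 (19.1% of all genes) and 4 did not overlap (20.6%). In that contrast DESeq2 called 4 (Fos and Batf as well) and a fit of all 18 libraries 5 (Fos, Fosl1 and Batf as well). The shares of all genes that passed are those of the edgeR fits, not of these alternatives. Over all alternatives run, genes called of all tested ran from 24 to 1403 (main 316) in that contrast. They ran from 4 to 100 (main 10) for GILZ KO against WT and from 15 to 1067 (main 56) for GILZ TG against WT.

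Fosl2, at the levels given above, was 1.01 higher in GILZ KO than in GILZ TG (log2, SE 0.17, adjusted p = 0.0154, edgeR) and 0.81 higher than in WT (SE 0.17, adjusted p = 0.163). All 3 GILZ KO libraries lay above the 6 others, and WT and GILZ TG overlapped. With GILZ TG replicates 1 and 2 left out, against the 1 remaining library, the first of these Fosl2 values was 0.82 (adjusted p = 0.203). Leaving out GILZ KO replicate 1 or 3 gave 1.06 (adjusted p = 0.078) or 0.94 (0.0756), and leaving out GILZ TG replicate 1 gave 0.86 (0.0586).

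Batf2 stood at 143, 160 and 169 TPM in LPS-treated GILZ KO, at 175, 179 and 177 TPM in WT and at 220, 255 and 202 TPM in GILZ TG, so the genotypes followed each other without overlap. Its log2 difference was -0.52 between GILZ KO and GILZ TG (SE 0.09, adjusted p = 0.0146, edgeR), 0.34 between GILZ TG and WT (SE 0.09, adjusted p = 0.122) and -0.18 between GILZ KO and WT (SE 0.09, adjusted p = 0.545). The first of these Batf2 values was -0.54 (adjusted p = 0.0543) or -0.45 (0.0567) with GILZ TG replicate 1 or 2 left out, and -0.44 (0.078) with GILZ KO replicate 1 left out. Against the 1 GILZ TG library that remained with both left out it was -0.41 (adjusted p = 0.209). GILZ TG replicate 3 held 202 TPM, above all WT and GILZ KO libraries. Between GILZ KO and GILZ TG after LPS, the stromal genes Col1a1 (-3.02) and Postn (-3.16) and the B cell gene Igkc (-6.33) were also lower. Against GILZ TG replicate 3 alone, these values were 0.17 for Col1a1, -0.82 for Postn and -3.67 for Igkc. The part of these other cells' transcripts in the Batf2 difference was not tested.

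The other members did not pass after LPS by the edgeR test of the 9 libraries. Between GILZ KO and GILZ TG, Fos differed by -0.58 on the log2 scale (SE 0.15, adjusted p = 0.0674, edgeR), Fosl1 by 0.48 (SE 0.13, adjusted p = 0.0709) and Batf by 0.47 (SE 0.15, adjusted p = 0.109). Fos stood at 136, 141 and 87.2 TPM in GILZ TG and at 85.6, 79.6 and 87.8 TPM in GILZ KO, so that GILZ TG replicate 3 lay among the GILZ KO libraries. Batf likewise stood at 46.4, 45.3 and 66.0 TPM in GILZ TG, with replicate 3 apart from replicates 1 and 2, and at 74.0, 71.6 and 73.4 TPM in GILZ KO. Against GILZ TG replicate 3 alone, the Fos difference was -0.15 (adjusted p = 0.75, edgeR) and the Batf difference 0.10 (adjusted p = 0.828). With GILZ TG replicate 3 left out instead, both passed, at -0.75 (adjusted p = 0.00147) for Fos and 0.68 (0.00171) for Batf. The part of the stromal, neutrophil and B cell transcripts in these GILZ TG levels was not tested. Jun, Junb, Jund and Atf3 differed by -0.08 to 0.10 with SEs of 0.07 to 0.11, and the 95% interval of each lay within -0.22 to 0.29.

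**Figure D5:**
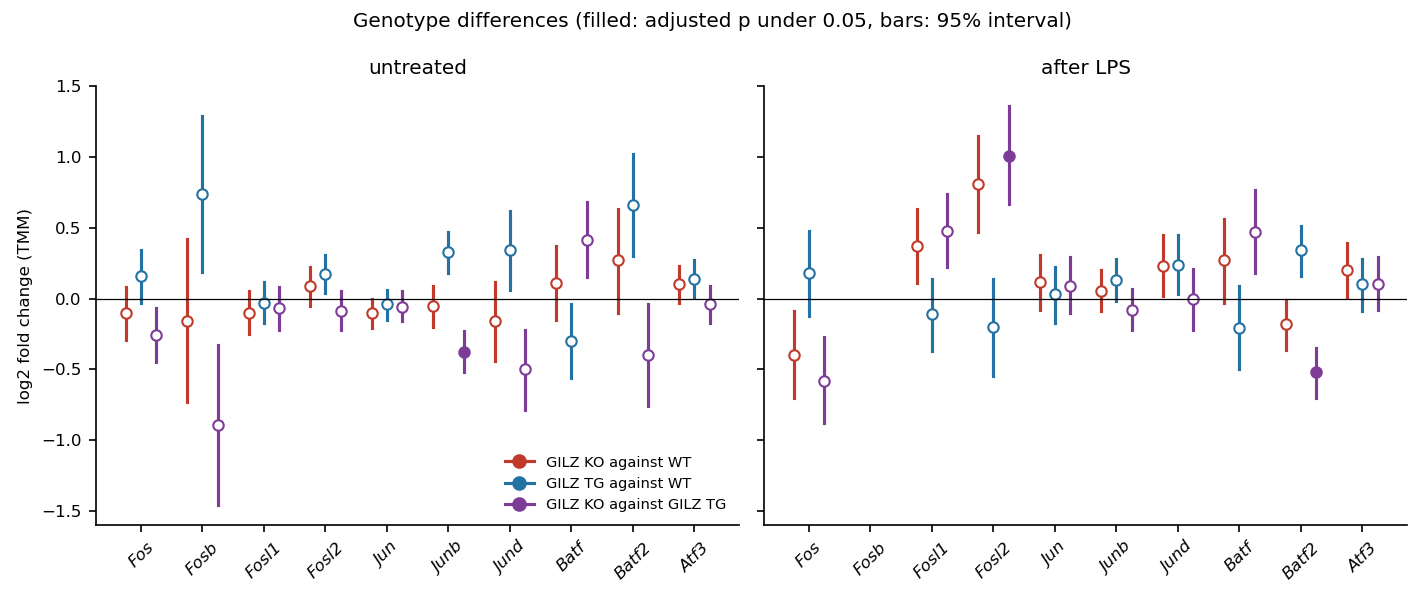
Log2 fold changes between genotypes for each gene (vertical axis, TMM scale, edgeR) with 95% intervals, in untreated (left) and LPS-treated libraries (right); filled points passed at an adjusted p under 0.05. Only Junb between GILZ KO and GILZ TG without LPS, and Fosl2 and Batf2 between GILZ KO and GILZ TG after LPS, are filled; Fosb was not tested after LPS.

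The fourth comparison tested the difference between the genotypes' LPS responses itself, in one fit over the 18 libraries. For GILZ KO minus WT, 0 of 10 members passed, beside 0.0152% of 13169 genes (edgeR); 3 (Fosl1, Fosl2 and Batf2) had an unadjusted p under 0.05 (6.36% of all genes), and DESeq2 called 0. For GILZ TG minus WT, 0 passed, beside 0.00759%, 0 had an unadjusted p under 0.05 (3.09% of all genes), and DESeq2 called 0. For GILZ KO minus GILZ TG, 1 of 10 passed, beside 0.121%, and 4 had an unadjusted p under 0.05 (9.92%): the response of Fosl2 was 1.08 higher in GILZ KO (log2, SE 0.20, 95% interval 0.67 to 1.48, adjusted p = 0.0496, edgeR). DESeq2 called 2, Fosl1 and Fosl2. The next in size among the abundant members was Fosl1, with 0.54 (SE 0.13, adjusted p = 0.125), and both differences had the same sign against WT, at 0.69 (SE 0.20, adjusted p = 0.616) for Fosl2 and 0.44 (SE 0.13, adjusted p = 0.621) for Fosl1. The contrasts against WT and against GILZ TG share the GILZ KO libraries. The shares of all genes that passed are those of the edgeR fit, not of DESeq2. Over all alternatives run, genes called of all tested ran from 0 to 150 (main 16) for GILZ KO minus GILZ TG. They ran from 1 to 20 (main 2) for GILZ KO minus WT and from 0 to 8 (main 1) for GILZ TG minus WT.

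The Fosl2 difference between the responses of GILZ KO and GILZ TG was just past the threshold, and its call was not stable. Its value was 0.98 with limma on log2(TPM + 1) (adjusted p = 0.067). With single libraries left out, the Fosl2 difference ran from 0.92 to 1.18, and the call ended without any one of several. Among untreated libraries these were WT replicate 2 (value 1.08, adjusted p = 0.0657), GILZ KO replicates 1 (1.06, 0.126), 2 (1.08, 0.0979) and 3 (1.09, 0.0776), and GILZ TG replicates 1 (1.03, 0.114) and 2 (1.07, 0.122). Among LPS-treated libraries they were WT replicate 2 (1.08, 0.0535), GILZ KO replicates 1 (1.13, 0.0948) and 3 (1.00, 0.186), and GILZ TG replicates 1 (0.92, 0.0718) and 2 (1.14, 0.0844). Without GILZ TG replicates 1 and 2 in both treatments, which leaves 1 library of each, the Fosl2 value was 0.73 (adjusted p = 0.536, edgeR).

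Genes that work with the family were taken from lists of related factors, kinases and targets, and their counts are on the TMM scale. Of 26 other bZIP factors, 12 rose, 6 fell and 8 were not called in WT after LPS (33.5% of all genes rose and 35.1% fell); their median log2 change was 0.26, against -0.02 for all genes. Cebpd, an acute-phase C/EBP factor, rose from 16.1 ± 6.08 to 159 ± 29.3 TPM (SD, n = 3; log2 fold change 3.93, SE 0.23), Creb5 rose by 3.52 (SE 0.13) and Mafk, a small MAF protein, by 2.86 (SE 0.09). Cebpa, the C/EBP factor of myeloid differentiation, fell from 29.6 ± 4.23 to 2.24 ± 0.173 TPM (-3.09, SE 0.19) and Mafg fell by -0.84 (SE 0.08). Of 24 genes of the MAP kinase cascade, 11 rose, 7 fell and 6 were not called (median 0.13). Map3k8, the kinase that links LPS sensing to ERK, rose from 9.18 ± 0.746 to 58.7 ± 3.35 TPM (3.44, SE 0.08), and Mapkapk2, a kinase below p38, by 2.96 (SE 0.13) and Tab2 by 2.01 (SE 0.08); Tab1 fell by -1.27 (SE 0.13), Map2k6 by -0.97 (SE 0.20) and Map3k1 by -0.75 (SE 0.07).

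Immediate-early genes outside the bZIP family went both ways: of 15 tested in WT, 9 rose, 3 fell and 3 were not called (median 1.52; Egr3 was below the filter). Zfp36, which destabilizes inflammatory mRNAs, rose from 150 ± 3.05 to 1090 ± 50.6 TPM (SD, n = 3; log2 fold change 3.49, SE 0.10) and Klf6 by 2.75 (SE 0.10), and Nr4a3 went from 0.01 to 0.05 TPM to 0.7 to 1.1 TPM. Nr4a1, a nuclear receptor, fell by -1.58 (SE 0.27), Klf2 by -1.33 (SE 0.32) and Myc by -0.47 (SE 0.09). The 3 IRF partners of BATF proteins rose: Irf1 from 30.9, 29.5 and 29.3 TPM to 426, 411 and 364 TPM (4.40, SE 0.08), Irf4 by 2.98 (SE 0.30) and Irf8 by 0.50 (SE 0.10). Irf8 in TPM was 96.3 ± 5.69 without LPS and 89.8 ± 13.2 with it, and these groups overlapped.

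Of 21 known AP-1 target genes, 17 rose and 4 fell in WT (median log2 change 2.86), where 33.5% of all genes rose and 35.1% fell. In GILZ KO 16 rose and 3 fell, beside 33.2% and 35.4% of all genes, and in GILZ TG 17 rose and 4 fell, beside 33.6% and 35.1%. Il1b, the gene for interleukin 1 beta, went from 6.44 ± 1.82 to 4400 ± 575 TPM, Il6 from 0.537 ± 0.0651 to 1040 ± 153 TPM and Ptgs2, the inducible cyclooxygenase, from 5.04 ± 0.262 to 827 ± 78.0 TPM in WT (SD, n = 3). Plau, the urokinase gene, fell from 527 ± 96.9 to 71.0 ± 10.8 TPM (log2 fold change -2.26, SE 0.21), Ccnd1 by -1.39 (SE 0.10) and Vegfa by -0.44 (SE 0.18). All 4 genes listed as repressed by ATF3 (Il6, Il12b, Ch25h and Ifnb1) rose in each genotype while Atf3 also rose; Il12b went from 0 to 0.1 TPM in untreated WT to 30.4, 33.8 and 35.2 TPM.

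Between genotypes, genes of these lists passed in the contrasts that involve GILZ TG. In untreated GILZ TG against WT, Mmp12, the macrophage elastase, was higher (log2 fold change 1.15, SE 0.08, adjusted p = 0.000158, edgeR), with 573, 496 and 501 TPM in WT and 1175, 1332 and 1089 TPM in GILZ TG, replicate 3 included. Hbegf, a growth factor gene (1.23, SE 0.23, adjusted p = 0.0482), and Egr2, an immediate-early zinc finger factor (1.07, SE 0.19, adjusted p = 0.0377), were also higher. After LPS, Mmp12 was the gene of these lists that was higher in GILZ TG than in WT (1.03, SE 0.10, adjusted p = 0.000833). With GILZ TG replicates 1 and 2 left out, Mmp12 still passed, at 1.05 without LPS (adjusted p = 0.00272, edgeR) and with an adjusted p of 0.00476 after LPS, whereas Hbegf stood at 0.66 (0.517) and Egr2 at 0.59 (0.302).

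Between GILZ KO and GILZ TG without LPS, 5 of 19 AP-1 targets tested were lower in GILZ KO (2.16% of all genes were), among them Mmp12 (-1.31, SE 0.08), Hbegf (-1.34, SE 0.23), Plau (-0.85, SE 0.13) and Mmp13 (-0.41, SE 0.09). Plau stood at 916, 958 and 662 TPM against 491, 467 and 478 TPM, without overlap. Of the other bZIP factors Jdp2 (-0.62, SE 0.09) and Maff (-0.64, SE 0.12) were lower and Bach1 higher (0.30, SE 0.05) in GILZ KO; of the MAP kinase genes Map2k2 was lower (-0.26, SE 0.05) and Map3k1 (0.31, SE 0.06) and Map3k5 (0.34, SE 0.08) higher; and Egr2 was lower (-1.41, SE 0.20). Against GILZ TG replicate 3 alone, Mmp12 was the one of these named genes that passed (-1.21, adjusted p = 0.00161, edgeR). The others kept their sign: Hbegf stood at -0.77, Plau at -0.51, Mmp13 at -0.51, Jdp2 at -0.53, Maff at -0.40, Bach1 at 0.26, Map2k2 at -0.33, Map3k1 at 0.30, Map3k5 at 0.23 and Egr2 at -0.93, with adjusted p-values from 0.0623 to 0.231.

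After LPS, between GILZ KO and GILZ TG, 2 of the 3 IRF partners were lower in GILZ KO (1.38% of all genes were), in the same direction as Batf2. Irf1 stood at 355, 396 and 357 TPM in GILZ KO and at 527, 532 and 454 TPM in GILZ TG (-0.45, SE 0.09, adjusted p = 0.0323, edgeR), and Irf8 at 81.5, 95.1 and 87.1 TPM and 135, 141 and 117 TPM (-0.57, SE 0.11, adjusted p = 0.0285). Neither overlapped, with replicate 3 of GILZ TG included. Il12b, the gene for the p40 chain of interleukin 12, was higher in GILZ KO, at 41.0, 51.3 and 53.8 TPM against 22.7, 18.2 and 12.5 TPM (1.43, SE 0.18, adjusted p = 0.00585). Mmp14 (0.44, SE 0.07) and Mafg (0.46, SE 0.10) were higher and Mmp12 (-1.12, SE 0.10), Plau (-1.43, SE 0.23) and Crem (-0.46, SE 0.10) lower. Against GILZ TG replicate 3 alone, Il12b (1.91, adjusted p = 0.00463, edgeR) and Mmp12 (-1.19, 0.00463) passed. Irf1 stood at -0.33, Irf8 at -0.46, Mmp14 at 0.38, Mafg at 0.48, Plau at -0.66 and Crem at -0.44, with adjusted p-values from 0.164 to 0.362. In the difference of the LPS responses, Bach1, a bZIP repressor of heme oxygenase, was the listed gene other than Fosl2 that passed (-0.68 in GILZ KO against GILZ TG, SE 0.12, adjusted p = 0.0271), with a value of -0.56 (adjusted p = 0.531) without GILZ TG replicates 1 and 2.

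The genes most like each member over the 18 libraries were sought among 9422 genes by the correlation of log2(TPM + 1). These values are a description: the points share 2 treatments, and a gene with any clear LPS response scores high. Batf2 was most like Whamm (r = 0.999) and Irf1 (0.998), Batf like Tma16 (0.998) and Malt1 (0.997), and Atf3 like Rab11fip1 (0.993) and Fam53c (0.992). Fosl1 was most like Sipa1 (0.998) and Tmem41a (0.997), Jun like Sh2b3 (0.996) and Chsy1 (0.995), Junb like Nlrp3 and Tmem86b (both 0.995), and Fos like Plau and Antxr2 (both 0.987). A correlation above 0.95 was shared with 3402 genes by Fosl1, 3323 by Jun and 936 by Batf2, but with 10 by Fosl2 and 0 by Jund. Fosl2 was most like Acvr1b (0.981) and P2ry2 (0.968), which within the 9 LPS-treated libraries also followed it (0.96 and 0.93) and within the 9 untreated ones less so (0.46 and 0.43). Irf1 followed Batf2 within the LPS-treated libraries (0.90) and less within the untreated ones (0.59). For Fos and Plau the values within treatments were 0.90 untreated and 0.94 after LPS, and GILZ TG replicates 1 and 2 had the highest Plau in both. Likeness over all libraries did not always hold within a treatment: Nlrp3 and Junb had 0.95 among untreated and -0.05 among LPS-treated libraries, Chsy1 and Jun -0.18 and 0.90, and Tmem41a and Fosl1 0.31 and 0.86.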

How the data were processed

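Per the labels and the study's methods, reads (1 x 75 nt, poly(A)-selected, strand-keeping kit) were quality-checked with FastQC 0.11.2 and mapped to mm10 (GRCm38) with the grape-nf pipeline; the quantifier's version and strand setting were not given in the sources used here. The authors deposited 1 table per library with the expected count and the TPM of each gene, and tables of their own DESeq2 1.40.2 comparisons. The comparisons hold fold changes and p-values, of which no value was used, and 20999 genes with a symbol. In all, 37570 of 38887 IDs had a symbol. Rows without an ID (14) were left out.

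Expected counts were rounded to whole numbers; those of the 10 members were whole as deposited. Tests used edgeR 4.0.16 (TMM, filterByExpr, quasi-likelihood F-test, Benjamini-Hochberg adjustment over all genes tested) in R 4.3.3: 1 fit of 9 libraries per treatment for genotypes and 1 fit of 18 libraries for LPS responses and their differences, with a threshold of 0.05. Standard errors were the log2 fold change divided by the root of F. limma 3.58.1 on log2(TPM + 1) or log2(TPM + 0.1), DESeq2 1.42.0 and other filters, scalings and library choices were alternatives. The edgeR, DESeq2 and limma fits were tested on simulated counts, without the other filters, scalings and blocks. Depth ran from 14583055 to 38557029 expected counts per library, which limits Fosb.

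The members and gene lists were chosen with earlier results of these data known. All 10 members were named; of the lists, up to 3 genes in each direction by size in WT after LPS and every gene called between genotypes, and for each member above 1 TPM the 2 most alike among genes above 5 TPM. Samples were grouped by genotype and treatment as labelled. Deviations from the group means of same-numbered untreated and LPS-treated libraries correlated above 0.1 in 3 of 3 GILZ TG pairs (0.266, 0.397 and 0.605). They did so in 1 of 3 WT pairs (0.264) and in 0 of 3 GILZ KO pairs (at most 0.095). Same-numbered libraries of different genotypes did so in 2 of 18 pairs. GILZ TG replicates 1 and 2 also held stromal, neutrophil and B cell transcripts in both treatments. These values therefore do not settle whether numbers paired samples, and blocks were kept as alternatives. Protein sequences were not used here. Results for a few listed genes are not reported here.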

Additional observations from a re-analysis of the deposited data

Results flagged for a closer look

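The difference between the LPS responses of GILZ KO and GILZ TG was picked out for Fosl2, the gene for FRA-2, because the test of the difference itself passed: 1.08 on the log2 scale (SE 0.20, adjusted p = 0.0496, edgeR). After LPS, Fosl2 was higher in 3 of 3 GILZ KO libraries than in any GILZ TG library. GILZ TG replicates 1 and 2, whose stromal marker sums were 83.5 and 115 TPM after LPS, held 5.4 and 7.74 TPM of Fosl2, and replicate 3, with a sum of 10.8 TPM, held 7.67 TPM. Neutrophil and B cell marker sums were also higher in replicates 1 and 2 than in replicate 3, and the part of these transcripts in the difference was not tested.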

How the results depend on the processing

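The numbers of members called for the LPS response held within 1.5 times under all alternatives run, with single libraries left out at 9 to 10 in WT, 9 in GILZ KO and 9 to 10 in GILZ TG, and so did the counts of 0 for GILZ KO against WT without LPS and for the differences of response against WT. The Fosl2 response in GILZ KO (0.06) changed sign in 4 settings: -0.55 with limma on log2(TPM + 1), -0.58 with limma on log2(TPM + 0.1), -0.01 without GILZ KO LPS replicate 3, and -0.58 when scaled by the library total (with single libraries left out it ran from -0.01 to 0.11), an alternative chosen after the data were seen. The median gene in GILZ KO stood at -0.023 with TMM, at -0.660 when scaled by the library total and at -0.517 with limma on log2(TPM + 1). For the other settings the cause was not tested. For GILZ KO against GILZ TG without LPS (1 member), DESeq2 and no filter on low counts gave 2, both limma fits 2 (Junb and Batf), the 6 libraries compared alone 2, all 18 libraries in 1 fit 2, and leaving out GILZ TG replicates 1 and 2 gave 0. For GILZ KO against GILZ TG after LPS (2 members), DESeq2 and no filter gave 4, all 18 libraries 5 and leaving out GILZ TG replicates 1 and 2 gave 0. For GILZ TG against WT without LPS (0 members), DESeq2, no filter and all 18 libraries gave 1 each, as they did for GILZ KO against WT and for GILZ TG against WT after LPS. For the difference of responses between GILZ KO and GILZ TG (1 member), DESeq2 gave 2, both limma fits 0 and leaving out GILZ TG replicates 1 and 2 gave 0. With single libraries left out, the counts ran from 0 to 1 for that difference, 0 to 2 for GILZ TG against WT and 0 to 4 for GILZ KO against GILZ TG without LPS, and 0 to 1 for GILZ KO against WT, 0 to 2 for GILZ TG against WT and 0 to 4 for GILZ KO against GILZ TG after LPS. Without GILZ TG replicates 1 and 2 together, 1 GILZ TG library per treatment remains and is assumed to vary like the other groups, so the counts of 0 there say little about stability; for the listed genes of other pathways this setting was chosen after the data were seen. The labels do not say that libraries with the same number share an animal. With the replicate number as a block across genotypes, GILZ KO against GILZ TG without LPS gave 2 members (Junb and Jund) and GILZ KO against WT after LPS gave 1 (Fosl2). With a block of genotype and number, a pairing that was not settled, the difference of responses gave 2 (Fosl2 and Jund), and the blocks changed no other call of a member. Over all genes, counts ran from 16 to 665 (main 81) for GILZ TG against WT and 34 to 1306 (main 623) for GILZ KO against GILZ TG without LPS, from 15 to 1067 (main 56) and 24 to 1403 (main 316) after LPS, from 5 to 79 (main 12) and 4 to 100 (main 10) for GILZ KO against WT without and with LPS, and from 0 to 150 (main 16), 1 to 20 (main 2) and 0 to 8 (main 1) for the differences of response of GILZ KO against GILZ TG, GILZ KO against WT and GILZ TG against WT. The highest of these came without GILZ TG replicate 3 where GILZ TG was compared within a treatment. Counts of Fosb, at most 9 per library after LPS, limit its precision.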
